A study of Homo sapiens with 16 samples.

Results

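A set of 10 genes of the YAP and TEAD pathway was followed through 16 RNA-seq libraries: YAP1, WWTR1, TEAD1, CTGF, CYR61, ANKRD1, AMOTL2, AMOTL1, LATS2 and AJUBA. They were chosen by symbol from a table of 58243 genes, and all 10 were among the 16647 genes with enough counts to be tested. The cells were U-251 MG, an established human glioblastoma line grown in high-glucose medium with serum. Groups of 4 libraries each had 48 h of treatment, begun 24 h after seeding: 0.06 µM simvastatin plus 0.6 µM irinotecan (the combination), 0.6 µM irinotecan, 0.06 µM simvastatin, or DMSO, the vehicle. Irinotecan is the prodrug of a topoisomerase I inhibitor, and simvastatin blocks HMG-CoA reductase, the enzyme that commits cells to sterol and isoprenoid synthesis. All values come from 1 line at 1 dose of each drug and 1 time. In bulk RNA, fewer cells of a kind and less RNA per cell cannot be told apart.

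YAP1 and WWTR1 (the gene of TAZ) encode co-activators that bind no DNA themselves and reach their target genes through TEAD transcription factors, of which TEAD1 is a member. The Hippo kinases LATS1 and LATS2 phosphorylate both co-activators and keep them out of the nucleus, angiomotin family proteins such as AMOTL1 and AMOTL2 hold them in the cytoplasm, and AJUBA is a LIM protein that binds and restrains LATS kinases. CTGF (CCN2), CYR61 (CCN1) and ANKRD1 are the usual transcript readouts of this pathway, while LATS2 and AMOTL2 are both targets and inhibitors of it. Statins are known to lower YAP and TAZ activity in several cell types. Transcript levels do not show where the YAP and TAZ proteins were or whether they were phosphorylated.

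Promoter windows of 3 members are shown because they hold the letters that TEAD factors recognise and because with irinotecan CTGF and AMOTL2 fell while ANKRD1 rose. Each runs from 250 bases before to 50 bases after a transcript start, 5′ to 3′ on the gene's strand, as RefSeq gives it for GRCh38.p14; capitals mark GGAATG or, for a match on the opposite strand, its reverse complement. CTGF lies on the minus strand (chr6:131951323-131951622), ANKRD1 on the minus strand (chr10:90921038-90921337) and the second start of AMOTL2 on the minus strand (chr3:134374398-134374697).
CTGF: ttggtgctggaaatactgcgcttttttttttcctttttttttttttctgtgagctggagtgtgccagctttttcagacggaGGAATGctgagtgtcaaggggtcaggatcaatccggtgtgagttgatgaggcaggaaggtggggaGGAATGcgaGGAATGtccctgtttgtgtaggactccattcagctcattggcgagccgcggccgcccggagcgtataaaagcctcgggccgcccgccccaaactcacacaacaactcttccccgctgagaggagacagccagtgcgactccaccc
ANKRD1: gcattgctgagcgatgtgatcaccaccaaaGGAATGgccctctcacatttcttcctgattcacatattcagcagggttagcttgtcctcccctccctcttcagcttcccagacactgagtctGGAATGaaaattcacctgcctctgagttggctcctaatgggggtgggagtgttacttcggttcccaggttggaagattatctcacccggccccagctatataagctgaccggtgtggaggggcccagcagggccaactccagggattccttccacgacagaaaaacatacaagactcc
AMOTL2 start 2: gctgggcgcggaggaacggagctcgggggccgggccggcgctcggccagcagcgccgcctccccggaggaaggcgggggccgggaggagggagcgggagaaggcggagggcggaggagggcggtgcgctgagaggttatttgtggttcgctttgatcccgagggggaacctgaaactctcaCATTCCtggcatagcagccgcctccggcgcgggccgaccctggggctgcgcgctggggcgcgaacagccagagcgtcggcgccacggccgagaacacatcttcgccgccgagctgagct

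The CTGF window held 3 matches, which began 169, 104 and 95 bases before the start, and the ANKRD1 window held 2, at 220 and 128 bases. AMOTL2 had 1 match on the opposite strand, 69 bases before its second start, and none at its first. Single matches were also found for YAP1 (162 bases before the start), AJUBA (59 bases before its second start) and LATS2 (9 bases after the start). CYR61 and TEAD1 had no promoter window in the source and were not searched. Matches on either strand stood in 14.0% of 35116 such windows genome-wide, and 2 or more in 1.37%. AP-1, a factor that often shares sites with TEAD, was searched as TGANTCA and matched once, in ANKRD1 at 195 bases, against 7.71% of all windows. The CArG box, the site of SRF, matched in none of the 11 windows of the 8 members that had one, against 1.29% of all windows. No searched motif overlapped another. A match gives letters only and says nothing of whether a factor was bound.

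**Figure D1:**
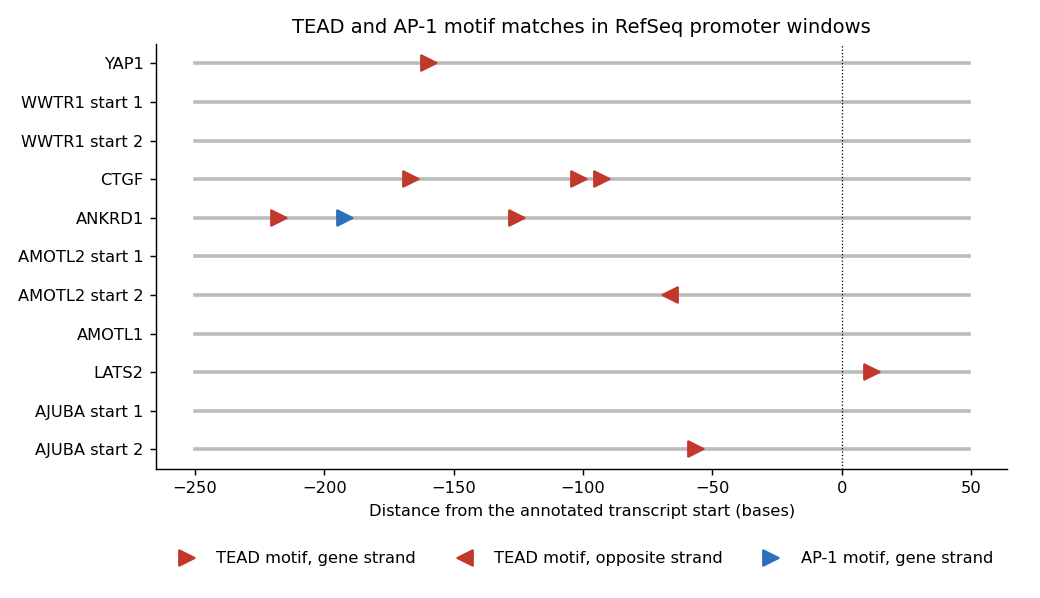
Positions of GGAATG and TGANTCA matches, on either strand, in the 11 promoter windows of 8 members, in bases from the annotated transcript start. CTGF holds 3 TEAD matches, ANKRD1 holds 2 with 1 AP-1 match, and 4 other windows hold 1 TEAD match each.

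Library totals ran from 24159673 to 32318888 counts. The leading principal component (25.9% of variance) put the 8 libraries with irinotecan on one side and the 8 without it on the other. Of 12 glioma and astrocyte markers 9 were tested, while OLIG2, AQP4 and ALDH1L1 reached at most 3, 7 and 6 counts in any library. CPM is the count of a gene scaled to a common library size, with TMM factors except in the marker sums. The marker sums were scaled by library totals alone. Summed glioma and astrocyte markers were 5680 to 5839 CPM with the combination and 5806 to 5953 with irinotecan. They were 7185 to 7295 with simvastatin and 7412 to 7645 with DMSO. Summed epithelial markers went the other way, at 511 to 584 CPM with the combination and 589 to 649 with irinotecan, against 364 to 396 with simvastatin and 405 to 455 with DMSO. Of these 5 markers only KRT8, KRT18 and CLDN4 were tested, and EPCAM reached at most 2 counts. The 6 endothelial markers, 3 of them tested, summed to 6.42 to 6.94 CPM with the combination and 5.67 to 6.90 with irinotecan, against 4.15 to 4.82 with simvastatin and 4.18 to 4.78 with DMSO. Among them KDR, a VEGF receptor, rose by 0.46 ± 0.11 with the combination and by 0.34 ± 0.11 with irinotecan on the log2 scale, each against DMSO (edgeR adjusted p = 0.0023 and 0.0284), while PECAM1 reached at most 3 counts. Of the 3 tested endothelial markers 2 rose and 1 fell with the combination, where the lowest log2 change was -1.50. With irinotecan 2 rose, and the lowest change, -0.66, did not pass. Summed neuron markers overlapped between all groups, at 68.5 to 73.5 CPM with the combination, 72.5 to 80.2 with irinotecan, 69.4 to 79.0 with simvastatin and 62.7 to 81.5 with DMSO. Of these 6 markers 3 rose and 1 fell with the combination, 2 rose with irinotecan and 1 rose with simvastatin, each against DMSO. Leukocyte markers summed to 0.282 to 0.386 CPM with the combination, 0.526 to 0.705 with irinotecan, 0.473 to 0.927 with simvastatin and 0.386 to 0.652 with DMSO, with CD3E at 0 in all 16 libraries. The glioma, epithelial and endothelial sums moved with irinotecan, as did members described below, and the part of any of these markers in the members' changes was not tested.

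Set against gene length, CYR61 and CTGF stood far above the other members. In the DMSO libraries CYR61 had 516 ± 9.85 CPM per kilobase of exon and CTGF had 283 ± 16.8 (SD, n = 4 throughout). WWTR1 followed with 63.9 ± 2.71 and AMOTL2 with 48.7 ± 1.18, then TEAD1 with 30.1 ± 1.25, AJUBA with 22.7 ± 1.00 and YAP1 with 15.9 ± 0.822. ANKRD1 (11.3 ± 0.492), AMOTL1 (8.11 ± 0.575) and LATS2 (6.42 ± 0.330) were the lowest. WWTR1 was the more abundant co-activator transcript, at 3.67 ± 0.13 times YAP1 per kilobase with the combination, 3.66 ± 0.0979 with irinotecan, 3.90 ± 0.111 with simvastatin and 4.03 ± 0.0574 with DMSO. TEAD1 made up 70.0% ± 1.62 of the summed TEAD1 to TEAD4 level with the combination, 68.8% ± 1.92 with irinotecan, 73.9% ± 1.37 with simvastatin and 72.6% ± 0.843 with DMSO.

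Across the 16 libraries WWTR1 changed with irinotecan, while YAP1 missed the threshold. WWTR1 had 465, 451, 481 and 450.5 CPM with the combination and 435, 432, 464 and 472 with irinotecan, against 486, 484, 538 and 498 with simvastatin and 507, 537, 562 and 545 with DMSO. No irinotecan-treated library, with or without simvastatin, reached the lowest DMSO library. On the log2 scale WWTR1 fell by 0.22 ± 0.04 with the combination (edgeR adjusted p = 7.9e-05) and by 0.25 ± 0.04 with irinotecan (adjusted p = 1.03e-05), each against DMSO, where ± is the standard error of a fold change. Its change with simvastatin was -0.10 ± 0.04 (adjusted p = 0.15). The means ran DMSO, simvastatin, combination, irinotecan, and of the neighbours in that order only the combination and simvastatin differed past the test (-0.12 ± 0.04, adjusted p = 0.0267). Scaled by library totals alone, that last difference was -0.07 (adjusted p = 0.216), and it also missed the threshold without combination replicate 2 or 4 or simvastatin replicate 3.

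YAP1 had 91.6, 93.1, 96.0 and 96.0 CPM with the combination and 85.9, 91.0, 94.6 and 97.2 with irinotecan, against 92.9, 89.4, 106 and 97.2 with simvastatin and 93.1, 99.0, 105 and 103 with DMSO. The groups overlapped in every pair compared, and the nearest to a call was irinotecan against DMSO (-0.12 ± 0.05, adjusted p = 0.0723). TEAD1 lay between 267 and 332 CPM in all libraries, and none of its changes passed the test. Its 95% interval for the combination against DMSO was -0.20 to 0.05 on the log2 scale. Library 3 of the simvastatin group held that group's highest value of YAP1, WWTR1, TEAD1, AMOTL1 and LATS2, and without it simvastatin against DMSO gave WWTR1 -0.14 (adjusted p = 0.0249) and TEAD1 -0.18 (adjusted p = 0.0101).

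CTGF and CYR61, which encode secreted matrix-associated proteins, both fell with irinotecan, and CTGF rose when simvastatin was added to it. CTGF (minus strand, chr6:131948176-131951373) had 558, 549, 626 and 574 CPM with the combination and 469, 503, 484 and 466 with irinotecan, against 689.8, 676, 653 and 672 with simvastatin and 650.2, 667, 617 and 711 with DMSO. All irinotecan libraries lay below all combination libraries, and the combination overlapped DMSO through its replicate 3 alone. Relative to DMSO, CTGF fell by 0.46 ± 0.04 log2 units with irinotecan (adjusted p = 5.61e-10) and by 0.20 ± 0.04 with the combination (adjusted p = 0.000453). The combination exceeded irinotecan by 0.26 ± 0.04 (adjusted p = 6.53e-05), and simvastatin alone differed from DMSO by 0.02 ± 0.04 (95% interval -0.06 to 0.11).

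CYR61 (plus strand, chr1:85580761-85583962) had 1024, 976, 1044 and 1061 CPM with the combination and 1035, 970.4, 1001 and 931 with irinotecan, against 1214, 1181, 1149 and 1153 with simvastatin and 1281, 1250.4, 1240.0 and 1291 with DMSO. The 2 groups with irinotecan overlapped each other and lay below both groups without it. CYR61 fell by 0.30 ± 0.04 with the combination (adjusted p = 7.1e-08) and by 0.36 ± 0.04 with irinotecan (adjusted p = 2.42e-09) against DMSO. Simvastatin added to irinotecan gave 0.06 ± 0.04 (adjusted p = 0.379). Every simvastatin library was below every DMSO library, with a change of -0.11 ± 0.04 that did not pass (adjusted p = 0.0656, and 0.019 by DESeq2). CYR61 was 1.70 ± 0.0782 times CTGF per kilobase with the combination, 1.95 ± 0.112 with irinotecan, 1.66 ± 0.0196 with simvastatin and 1.83 ± 0.0848 with DMSO.

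ANKRD1, an ankyrin repeat protein of the nucleus and the sarcomere, rose with irinotecan and with the combination against DMSO, where CTGF and CYR61 fell, and it rose with CTGF when simvastatin was added to irinotecan. It had 32.6, 36.0, 37.4 and 33.7 CPM with the combination and 31.6, 30.2, 29.3 and 29.0 with irinotecan, against 22.4, 24.0, 21.1 and 23.2 with simvastatin and 22.3, 21.2, 22.4 and 23.6 with DMSO. The combination was above irinotecan in all libraries, and both were above every library without irinotecan, while simvastatin and DMSO overlapped. Against DMSO, ANKRD1 rose by 0.64 ± 0.06 with the combination (adjusted p = 3.67e-10) and by 0.42 ± 0.06 with irinotecan (adjusted p = 1.14e-06). The combination exceeded irinotecan by 0.22 ± 0.05 (adjusted p = 0.012), a difference that was 0.19 without replicate 3 of the combination (adjusted p = 0.0651).

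AMOTL2 (minus strand, chr3:134355874-134375479) showed the largest log2 change in size of the 10 genes with irinotecan and with the combination. It had 181, 174, 189.5 and 179 CPM with the combination and 186, 176, 189 and 186 with irinotecan, against 269, 259, 268 and 243 with simvastatin and 299, 291, 282 and 293 with DMSO. Simvastatin lay wholly below DMSO, and both irinotecan groups lay far below simvastatin and overlapped each other. It fell by 0.69 ± 0.04 with the combination (adjusted p = 1.38e-14), by 0.66 ± 0.04 with irinotecan (adjusted p = 4.64e-14) and by 0.17 ± 0.04 with simvastatin (adjusted p = 0.00445), each against DMSO. Its share of the summed angiomotin family level per kilobase (AMOT, AMOTL1 and AMOTL2) was 49.0% ± 0.929 with the combination and 50.1% ± 1.07 with irinotecan, against 56.6% ± 1.79 with simvastatin and 57.5% ± 1.39 with DMSO.

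The remaining 3 regulators changed little. AMOTL1 had 69.1, 65.1, 76.6 and 75.5 CPM with irinotecan against 81.5, 84.3, 86.6 and 73.4 with DMSO, and it fell by 0.19 ± 0.05 (adjusted p = 0.0118). These groups overlapped, and scaling by library totals alone gave -0.11 (adjusted p = 0.146); the call was also lost without irinotecan replicate 2 or DMSO replicate 3. LATS2 had 38.7, 37.9, 41.8 and 38.8 CPM with the combination against 34.4, 35.4, 35.0 and 38.5 with DMSO (0.13 ± 0.06, adjusted p = 0.071; 0.19 with adjusted p = 0.00738 when scaled by library totals alone). Irinotecan alone gave LATS2 -0.00 ± 0.06, with an interval of -0.11 to 0.11. AJUBA had 128, 119, 125 and 128 CPM with the combination and 120.4, 122, 122 and 119.9 with irinotecan, against 149, 144, 138 and 143 with simvastatin and 138, 137, 142 and 128 with DMSO. All irinotecan libraries lay below all DMSO libraries, and AJUBA fell by 0.17 ± 0.04 (adjusted p = 0.00137). With the combination it fell by 0.12 ± 0.04 (adjusted p = 0.0194), a call lost without combination replicate 2 or DMSO replicate 3. Under library totals alone AJUBA passed in neither, at -0.09 with irinotecan (adjusted p = 0.0675) and -0.06 with the combination (adjusted p = 0.229).

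**Figure D2:**
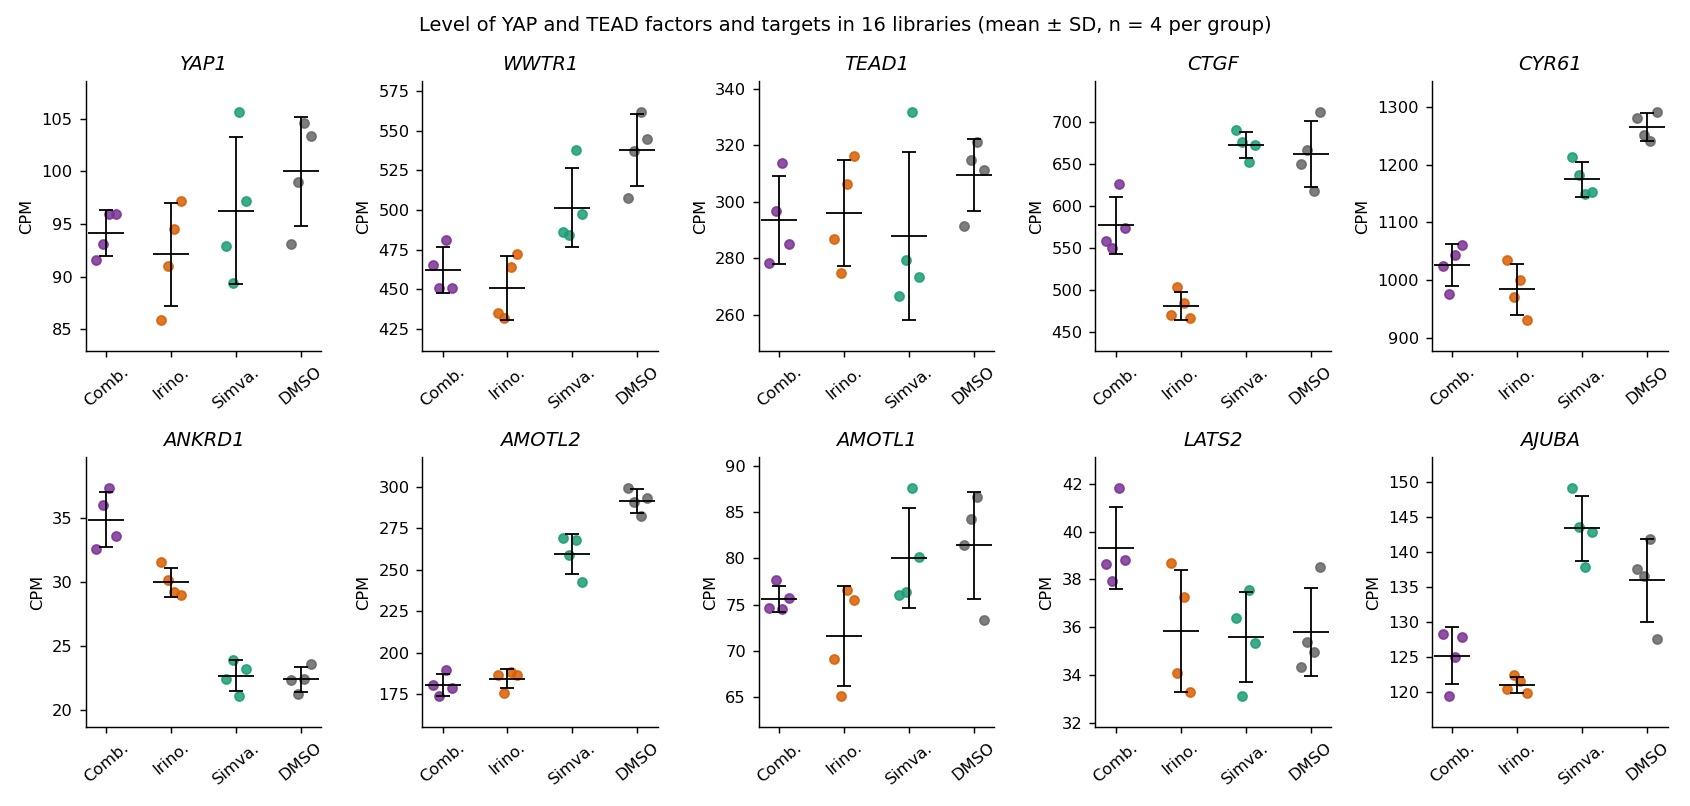
Level of each of the 10 genes in CPM, counts scaled to a common library size with TMM factors, 1 point per library and the mean with its SD (n = 4) per group. AMOTL2, CYR61 and WWTR1 are lowest and ANKRD1 highest in the 2 groups with irinotecan, and CTGF averages 577 CPM with the combination, 481 with irinotecan, 673 with simvastatin and 661 with DMSO.

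The first question is what irinotecan did to the pathway's transcripts. Of the 10 genes 6 fell (CTGF, CYR61, AMOTL1, AMOTL2, AJUBA and WWTR1), 1 rose (ANKRD1) and 3 did not pass (LATS2, YAP1 and TEAD1); 24.1% of all genes tested passed in this comparison (12.4% higher and 11.7% lower). The median log2 change of the 10 was -0.18, against -0.00 over all genes. Groups did not overlap for 6 of the 10, against 23.4% of all genes. Of the 17 other genes in a 22-gene list of known YAP and TAZ targets, 7 fell and none rose, and the median was -0.13. FJX1, a secreted regulator of cadherin-linked planar polarity, fell by 0.71 ± 0.05. RBMS3, an RNA-binding protein, fell by 0.57 ± 0.08 and NT5E, the ecto-enzyme that makes adenosine, by 0.52 ± 0.08. CRIM1, a transmembrane protein that binds BMPs, fell by 0.32 ± 0.05 (adjusted p at most 1.004e-05 for these 4).

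Some upstream components passed in each direction with irinotecan, where 24.1% of all genes passed (12.4% higher and 11.7% lower). Among 25 Hippo kinase genes other than LATS2, 5 rose and 3 fell. NF2, the upstream tumour suppressor merlin, fell by 0.36 ± 0.04 and WWC1, a LATS-binding scaffold, by 0.22 ± 0.05, while the kinase genes MAP4K4 and MAP4K2 rose by 0.24 ± 0.03 and 0.20 ± 0.05. LATS1 did not pass (-0.04 ± 0.09). Another list held partners of YAP and TEAD with further regulators of the pathway, and its genes are called partners below. Of its 22 tested genes outside the 10, 6 rose and 4 fell (45.5%). Whether the kinase genes or the partners passed more often than all genes was not tested. FRMD6, a FERM protein upstream of the kinases, rose by 0.56 ± 0.05, while AMOT fell by 0.25 ± 0.05. TEAD3 rose by 0.40 ± 0.09 and TEAD2 by 0.21 ± 0.06, both at low levels (TEAD2 at adjusted p = 0.0527 without irinotecan replicate 1), and TEAD4 was at 0.04 ± 0.09.

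With simvastatin at this dose 1 of the 10 genes, AMOTL2, passed the test against DMSO, and it fell; 6.00% of all genes passed (3.89% higher and 2.11% lower). The intervals of the log2 change were -0.06 to 0.11 for CTGF, -0.18 to -0.04 for CYR61 and -0.11 to 0.13 for ANKRD1. CYR61 and AMOTL2 did not overlap DMSO, against 10.0% of all genes. Of the 17 other targets, F3 (tissue factor) rose by 0.51 ± 0.10 (adjusted p = 0.00379) and NT5E by 0.51 ± 0.08 (adjusted p = 2.61e-05), and FJX1 fell by 0.16 ± 0.05 (adjusted p = 0.0284). NT5E averaged 19.9 ± 1.41 CPM with the combination, 11.4 ± 1.18 with irinotecan, 23.3 ± 2.32 with simvastatin and 16.4 ± 0.974 with DMSO. None of the 25 kinase genes passed. Of the 22 partners, TEAD2 (-0.25 ± 0.07, adjusted p = 0.0174) and LIMD1, a LIM protein related to AJUBA (-0.21 ± 0.04, adjusted p = 0.00144), fell, and RASSF1, an activator of the kinases, rose (0.23 ± 0.06, adjusted p = 0.0251). The TEAD2, RASSF1 and FJX1 calls were lost without DMSO replicate 3, among other single libraries (adjusted p = 0.0628, 0.0956 and 0.129), and those of AMOTL2 and F3 on the 12 libraries with a numbered title (adjusted p = 0.114 and 0.0534).

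With the combination 5 of the 10 genes fell against DMSO (CTGF, CYR61, AMOTL2, AJUBA and WWTR1) and ANKRD1 rose, where 28.1% of all genes passed (15.1% higher and 13.0% lower). The median of the 10 was -0.11, against 0.00 over all genes, and groups did not overlap for 4 of them, against 26.2% of all genes. The 17 other targets split, with 4 higher and 5 lower and a median of 0.01. F3 rose by 0.91 ± 0.10 (adjusted p = 2.82e-06), while FJX1 fell by 0.79 ± 0.05, RBMS3 by 0.51 ± 0.08 and NUAK2, a kinase of the AMPK family, by 0.30 ± 0.05. Kinase genes gave 3 higher and 4 lower of 25, with NF2 down by 0.30 ± 0.04 and MAP4K4 up by 0.22 ± 0.03. Partners gave 4 higher and 4 lower of 22; FRMD6 rose by 0.62 ± 0.05, and AMOT (-0.23 ± 0.05) and the polarity gene SCRIB (-0.23 ± 0.05) fell.

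**Figure D3:**
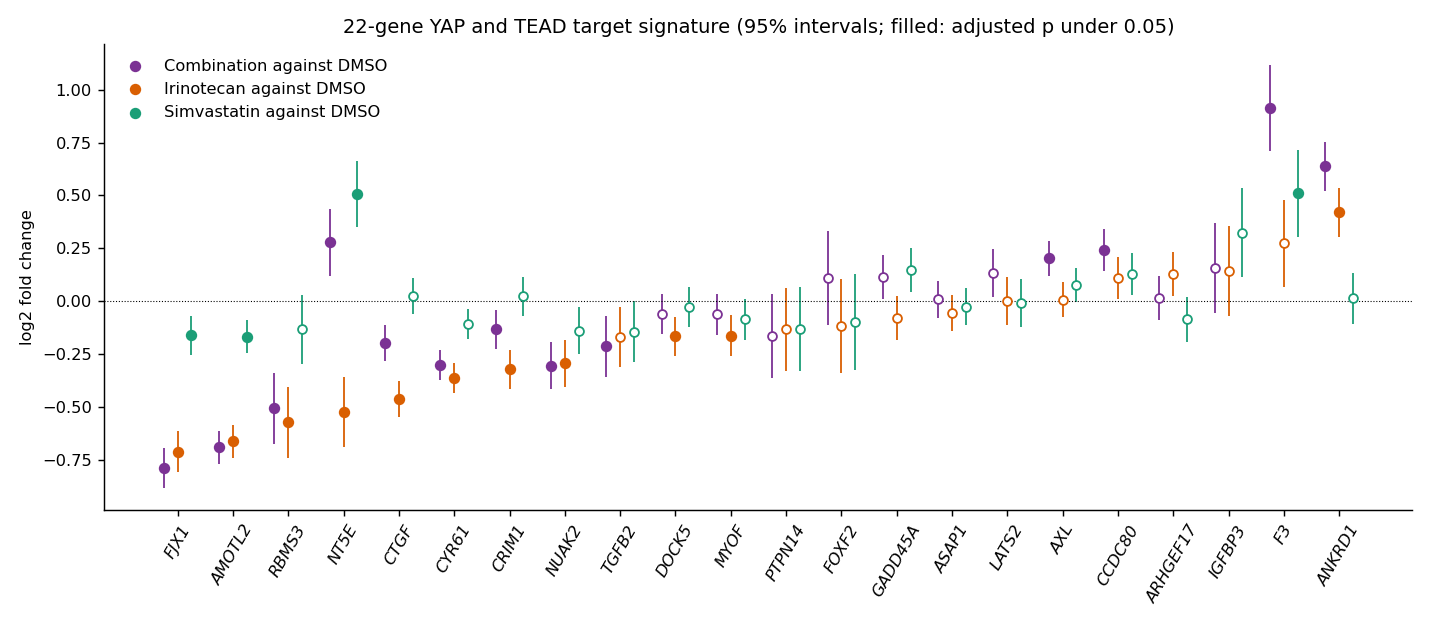
Log2 fold changes against DMSO with 95% intervals for the 22 genes of the target list, ordered by their change with irinotecan; filled points passed the adjusted p threshold of 0.05. FJX1 and AMOTL2 are lowest with the combination and with irinotecan, and F3 is highest with the combination at 0.91.

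Adding simvastatin to irinotecan raised 2 of the 10 genes, CTGF and ANKRD1, and lowered none, where 5.94% of all genes passed (4.45% higher and 1.50% lower). These 2 were also the only members whose groups did not overlap, against 13.1% of all genes. Of the 17 other targets 5 rose and none fell, with a median of 0.10 against -0.00 over all genes. NT5E was higher by 0.80 ± 0.08 (adjusted p = 3.37e-08), F3 by 0.64 ± 0.09 (adjusted p = 0.000471), the receptor kinase AXL by 0.19 ± 0.04 (adjusted p = 0.00168, and 0.0551 on the 12 numbered libraries) and CRIM1 by 0.19 ± 0.05 (adjusted p = 0.00811). No kinase gene passed, and partners gave 2 higher and 2 lower of 22. The remaining 8 members had intervals within -0.14 to 0.25 log2 units.

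Adding irinotecan to simvastatin changed 6 of the 10 genes, where 25.6% of all genes passed (13.9% higher and 11.7% lower). CTGF (-0.22 ± 0.04), CYR61 (-0.19 ± 0.04), AMOTL2 (-0.52 ± 0.04), AJUBA (-0.20 ± 0.04) and WWTR1 fell, and ANKRD1 rose by 0.62 ± 0.06 (adjusted p = 7.53e-10). Groups did not overlap for 7 of the 10, LATS2 included, against 25.8% of all genes. Of the 17 other targets 2 rose and 5 fell. TEAD2 rose by 0.39 ± 0.07 (adjusted p = 3.51e-05) and TEAD3 by 0.46 ± 0.10 (adjusted p = 0.000667) in this comparison. Both stood at low levels, averaging 19.3 and 7.31 CPM with the combination. TEAD1 did not pass (0.03 ± 0.06, adjusted p = 0.78), nor did TEAD4 on the 12 numbered libraries (0.09, adjusted p = 0.576). These comparisons share libraries, the combination and DMSO groups each entering 3 of them, and so are not independent of each other.

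**Figure D4:**
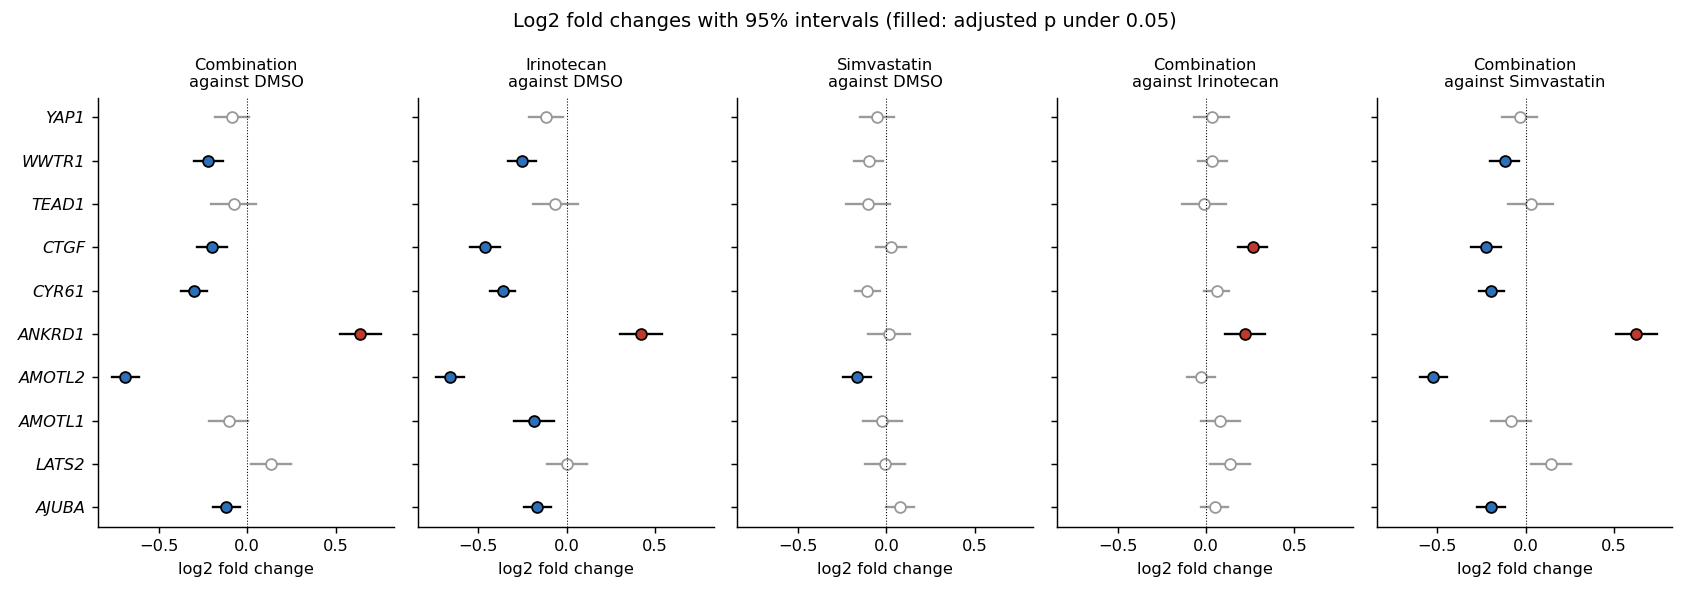
Log2 fold changes of the 10 genes with 95% intervals in 5 comparisons, filled where the adjusted p was under 0.05. AMOTL2 reaches -0.69 with the combination and -0.66 with irinotecan against DMSO, and CTGF and ANKRD1 are the filled points for the combination against irinotecan.

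The last question is whether the combination departed from the sum of the single-drug log2 effects. None of the 10 genes passed the test of that departure with edgeR or DESeq2, and 2 of 16647 genes did with edgeR (0.0120%). The lowest adjusted p among the 10 was 0.421, for CTGF, whose departure was 0.24 ± 0.06 with an interval of 0.12 to 0.36. At an unadjusted p under 0.05 there were 5 members (CTGF, CYR61, ANKRD1, AMOTL2 and WWTR1), against 1000 genes or 6.01% of all genes tested. CTGF was observed at a geometric mean of 576 CPM with the combination, against 489 CPM if the effects had added. The same pair of values was 1026 against 913 CPM for CYR61, 34.9 against 30.4 for ANKRD1, 181 against 164 for AMOTL2 and 462 against 419.9 for WWTR1. For 9 of the 10 genes the departure was positive, against 52.2% of all genes, and AJUBA was the exception at -0.03 ± 0.05. The 10 genes were measured in the same libraries and are not independent of each other. Within groups the correlation of log2 CPM between 2 members ran from -0.65 (CTGF and AMOTL1) to 0.87 (WWTR1 and TEAD1). The 22 targets had a median departure of 0.13, and none passed.

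**Figure D5:**
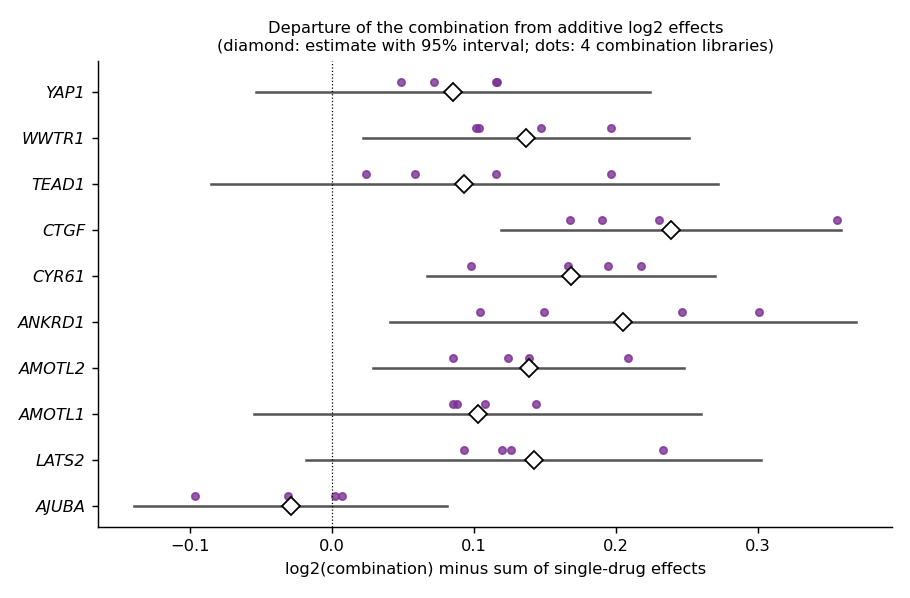
Departure of the combination from additive log2 effects for the 10 genes: diamonds are the estimates with 95% intervals and dots are the 4 combination libraries minus the additive value, which holds no error of its own. CTGF has the largest departure at 0.24, and its adjusted p of 0.421 is the lowest of the 10.

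By Pearson correlation of log2 CPM over the 16 libraries, among 12095 genes, the patterns nearest to CTGF were those of PRKAG2 (r = 0.97), FRMD5 (r = 0.96) and NRG1 (r = 0.94). Nearest to CYR61 were AMOTL2, ACTN4 and PMP22 (each r = 0.95), and nearest to AMOTL2 were GFAP, NEFL and NIPSNAP2 (each r = 0.98). AJUBA was nearest to HDHD5 (r = 0.96), TXNDC15 (r = 0.95) and MID1IP1 (r = 0.95). The 16 libraries fall into groups and share their scaling, and these values are given as a description. GFAP, the astrocyte intermediate filament, averaged 92.0 ± 3.92 CPM with the combination and 94.6 ± 3.19 with irinotecan, against 178 ± 1.65 with simvastatin and 202 ± 10.4 with DMSO.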

How the data were processed

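Counts per gene, whole numbers that the authors deposited without normalisation, were used for all 16 libraries. Per the submitters' processing notes, FastQC, STAR 2.7.1, DESeq2 and GRCh38 were used; which annotation, counter and strand mode gave the counts is not given in the sources used here. Whether reads of genes on opposite strands were separated is thus not known. WWTR1-AS1 averaged 20 counts, against 13158 for WWTR1. Libraries without a number in their title were called replicate 4. Whether a group's libraries were separate cultures is not labelled, so p-values measure the spread between these libraries, which may be technical. Within groups no 2 libraries were duplicates (chi-squared per degree of freedom from 2.47 to 13.9).

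In R 4.3.3, edgeR 4.0.16 kept genes by filterByExpr (minimum count 10, minimum total 15), scaled by TMM and fitted 1 robust quasi-likelihood model to 16 libraries. Each contrast had a two-sided F test with Benjamini-Hochberg adjustment over 16647 genes, and called under 0.05. The departure is combination minus irinotecan minus simvastatin plus DMSO. The standard error is the fold change over the root of F, and intervals are 95%. The biological coefficient of variation was 5.25%. Alternatives were DESeq2 1.42.0, library totals alone, median-ratio factors, no filter, a threshold of 0.01, the compared groups alone, the 12 numbered libraries with and without a replicate block, and leaving out each library. The list genes were added to these after the data had been seen.

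Coordinates and exon lengths came from GENCODE 29 (57980 of 58243 gene IDs matched), promoters from RefSeq. The members and lists were chosen with earlier results of these data known. Named genes are the 10 members, up to 4 called genes of smallest p per list and comparison (mean log2 CPM 1 or more), TEAD2 to TEAD4, LATS1, and the 3 genes most like CTGF, CYR61, AMOTL2 and AJUBA; list genes named in 1 comparison could be given in others, and some named genes and 1 list are not reported here. Figures used matplotlib 3.10.9.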

Additional observations from a re-analysis of the deposited data

How the results depend on the processing

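No value of the 10 genes changed direction while called: of 1430 recomputed log2 changes 1394 kept their side of the threshold, 18 lost a call and 18 gained one, where a change of sign with no call in either fit counts as kept. Of 2444 recomputed values of the other named genes 81 lost a call, 3 gained one and none reversed. At an adjusted p under 0.01 the genes called were 3032 for the combination, 2586 for irinotecan and 558 for simvastatin against DMSO, 529 for the combination against irinotecan (1 member), 2681 for it against simvastatin and 0 for the departure. Against DMSO, DESeq2 called 2 members with simvastatin (AMOTL2 and CYR61), and it called 4 genes in the departure. Without a filter on low counts 14 genes departed. The 12 numbered libraries alone gave 513 genes and 0 members for simvastatin (AMOTL2 -0.13, adjusted p = 0.114) and 1 gene for the departure. Scaling by library totals alone shifted the median of all genes by 0.06 for the combination and 0.07 for irinotecan against DMSO. It gave 3866 higher and 1401 lower genes for the combination against DMSO (2519 and 2159 with TMM), 3782 and 1079 for irinotecan (2064 and 1951), 594 and 351 for the combination against irinotecan (740 and 249) and 3523 and 1278 for it against simvastatin (2306 and 1953). Members called were then 6, 5, 2 and 6 in these 4 comparisons, in the order given; the cause was not tested.

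Leaving out single libraries gave 3998 to 4828 genes and 5 to 8 members for the combination against DMSO, and 3393 to 4187 genes and 6 to 8 members for irinotecan. For simvastatin there were 664 to 1224 genes, the fewest without its replicate 4, and 1 to 3 members, the most without its replicate 3. The combination gave 676 to 1113 genes and 1 to 2 members against irinotecan, and 3479 to 4370 genes and 5 to 6 members against simvastatin. The departure gave 0 to 9 genes, the most without simvastatin replicate 3, and 0 members throughout. YAP1 passed with irinotecan without irinotecan replicate 4, simvastatin replicate 3 or DMSO replicate 1. The labels do not say whether replicate numbers pair libraries. Correlations by number and a fit with a replicate block are given here, without a significance test of the pairing. The correlation of deviations between the 18 same-numbered pairs was -0.06 to 0.20. Its median was 0.06, against -0.03 for pairs of unlike number, and 9 of 12 libraries correlated best with their own number. With a replicate block on those 12 libraries, 2016 genes were called for the combination against irinotecan and 190 for the departure, with 0 members among those 190, and without the block 707 and 1. Members called with the block, and without it on those libraries, were 8 and 7 for the combination (AMOTL1 added, adjusted p = 0.00701 against 0.0667), 8 and 7 for irinotecan (YAP1 added, 0.0156 against 0.133) and 1 and 0 for simvastatin (AMOTL2, 0.00789 against 0.114), each against DMSO. For the combination against simvastatin they were 7 and 5 (LATS2 and WWTR1 added), and against irinotecan 2 and 2.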

Other observations

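Of genes of the actin and SRF programme, which shares many targets with YAP, more fell than rose with irinotecan. Of 22 tested genes in a list of MRTF and SRF genes, 8 fell and 3 rose with the combination, and 12 fell and 3 rose with irinotecan, each against DMSO, while none passed with simvastatin. The median log2 change was -0.09 with the combination, -0.15 with irinotecan and -0.02 with simvastatin. The highest change of a single gene was 0.89, 1.09 and 0.43 in the same order. With the combination the log2 change was -0.32 ± 0.04 for ACTB and for ACTG1, the cytoplasmic actins, and -0.26 ± 0.04 for FLNA, an actin crosslinker. With irinotecan it was -0.28 ± 0.04 for ACTB, -0.31 ± 0.04 for ACTG1 and -0.31 ± 0.04 for FLNA. FHL1, a LIM protein, rose by 0.35 ± 0.05 with the combination. Of all genes 28.1% passed with the combination (13.0% lower), 24.1% with irinotecan (11.7% lower) and 6.00% with simvastatin (2.11% lower).

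NOV (CCN3), a relative of CTGF and CYR61, rose by 0.64 ± 0.13 with the combination (adjusted p = 0.000293) and by 0.51 ± 0.13 with irinotecan (adjusted p = 0.00335, and 0.0625 on the 12 numbered libraries).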
